A study of Mus musculus with 5 samples.

Results

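Genes of peroxisome biogenesis and of peroxisomal enzymes were examined in liver RNA from 5 male mice, 1 array per mouse. The members were taken by symbol from a list of 47 genes, all of which were found among the 19938 genes that had a probe set with exactly 1 symbol. They comprised 29 enzymes, 5 membrane transporters and other membrane proteins, and 13 peroxins, and each of the 47 was read by 1 probe set. All mice were wild-type C57BL/6N aged 5 to 6 months, and all belonged to 1 group, given streptozotocin and then bezafibrate. Streptozotocin, which destroys pancreatic beta cells, was injected daily (65 mg/kg, 5 injections) when the mice were between 10 and 16 weeks old. Bezafibrate, a fibrate drug that activates PPAR receptors, was mixed into the food for 8 weeks, starting 2 weeks after the injections. The labels name 0.25% and 0.5% by weight without tying either to a mouse. Every liver carried both treatments, and no other group was analysed here, so the measurements give each gene's value and its spread between doubly treated mice, and no effect of either compound.

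Peroxisomes are single-membrane organelles that are abundant in hepatocytes. Peroxins build them: some insert membrane proteins, others carry enzymes bearing a targeting signal across the membrane, and the PEX11 proteins promote division. The enzymes inside shorten very long and branched fatty acids and bile acid precursors, make ether lipids, and produce and destroy hydrogen peroxide. In rodents, fibrates acting through PPARA are known to multiply liver peroxisomes and to induce several genes of this group, Ehhadh and Pex11a among them.

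PPARA and its partner RXR bind a direct repeat of the hexamer AGGTCA with 1 base between the copies, so the promoter windows of the members were searched for these letters on both strands. RefSeq windows on GRCm38.p6, each reaching from 250 bases before to 50 bases after a start site, were found for 38 of the 47 members. Sequence outside these short windows was not searched, so a gene without a match here may still have one farther away. The direct repeat with at most 2 mismatches occurred in 2 of the 38 (5.26%), Cat and Acox2, against 1190 of 27025 genes (4.4%), and none of the 38 had it with at most 1 mismatch, against 174 of 27025 genes (0.644%). An exact hexamer occurred in 5 of the 38 (13.2%), which were Cat, Dao, Pex11g, Phyh and Scp2, against 4900 of the 27025 genes (18.1%). The stretches below are those that lie wholly upstream of a start site. They are shown as matches of letters only, with the matched letters in capitals and 5′ to 3′ along the gene's strand. That of Cat is a repeat with 2 mismatches, and the others hold a single hexamer. The members' shares were near or below those of all genes, and binding or a response to fibrates was not tested. The matches of Acox2 and Phyh lay past the start site and are not printed. The first is the repeat of Cat (chr2:103485315-103485387, minus strand), which contains the hexamer counted for that gene, and the others are the hexamers of Scp2 (chr4:108118631-108118676, minus strand), Pex11g (chr8:3467796-3467841, minus strand) and Dao (chr5:114003792-114003837, plus strand, where the hexamer reads on the opposite strand).
Cat: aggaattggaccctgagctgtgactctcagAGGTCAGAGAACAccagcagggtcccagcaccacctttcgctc
Scp2: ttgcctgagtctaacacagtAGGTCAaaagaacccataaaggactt
Pex11g: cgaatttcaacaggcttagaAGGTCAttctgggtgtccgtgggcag
Dao: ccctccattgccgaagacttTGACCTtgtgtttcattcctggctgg

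The livers were compared on the deposited log2 scale, where 1 unit stands for a 2-fold change of signal, and probe sets of different genes were not ranked by level. A floor was set on each array at the 95th percentile of 1210 probe sets for odorant and vomeronasal receptors, genes taken to be mostly silent in liver. The floors ran from 5.58 to 6.07, highest in mouse 4, whose array also had the brightest value for 76.0% of these receptor probe sets and the lowest value for 36.5% of the 13309 genes with a mean above the floor. The samples are labelled as liver tissue; of 8 hepatocyte markers 7 were found, and these 7 exceeded the floor on all arrays. Nothing in the labels names a batch.

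Of the 47 members, 45 were brighter than the floor on each of the 5 arrays, as were 60.0% of the 19938 genes. The exceptions were Dao, which encodes an oxidase of D-amino acids, and Hao2, which encodes an oxidase of long-chain hydroxy acids. Dao had values of 4.89, 5.00, 4.95, 4.81 and 4.79 in mice 1 to 5, and Hao2 had 5.51, 5.26, 5.33, 5.33 and 5.40. Both lay below the floor on every array, so their order between mice carries no information. The other 45 entered the tests, among them 27 of the 29 enzymes and all of the membrane proteins and peroxins.

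No member passed the test of spread between the livers once all probe sets were taken into account. The variance of each probe set over the 5 mice was compared with that expected at its mean (limma, upper-tail F test, Benjamini-Hochberg over 14557 probe sets), and 0 of the 45 members passed at 0.05. Among all probe sets tested, 52 passed (0.357%). At an unadjusted p under 0.05, 5 of the 45 members passed, Nudt7, Uox, Hao1, Pxmp4 and Hacl1, and 6.35% of all probe sets did. The median SD of the members was 0.126 log2 units, against 0.117 for all genes tested, and the median ratio of variance to expected variance was 1.36, against 0.931. By class the median SD was 0.122 in the enzymes, 0.204 in the 5 membrane proteins and 0.129 in the peroxins. These values rest in part on single mice: without mouse 5 the median SD was 0.0697 in the enzymes and 0.120 in the membrane proteins, and without mouse 2 it was 0.0818 in the peroxins. Over all members it was 0.0922 without mouse 5 and 0.0939 without mouse 2, and over all genes tested 0.112 and 0.115 in the same settings. Mice 5 and 2 most often held the members' lowest and highest values, so leaving them out lowers the members' SD in part by construction. These SDs are also not matched for signal level, so the members cannot be called steadier than other genes.

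**Figure D1:**
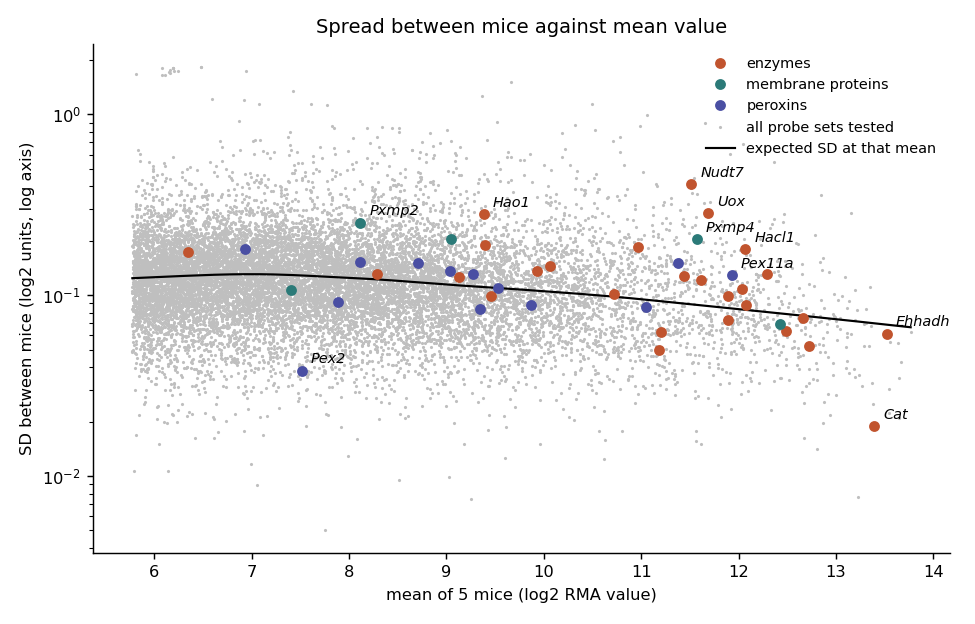
SD between the 5 mice (log2 units, log axis) against the mean log2 RMA value for the 45 members above the floor, coloured by class, and for all probe sets tested (grey). The black line is the SD expected at each mean. Nudt7 lies farthest above the line among the members, and Cat (SD 0.019) and Pex2 (SD 0.038) lie well below it.

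Mouse 5 had the lowest value of 26 of the 45 members, against 21.6% of all genes tested, and mouse 2 had the highest value of 27, against 25.6%. The split was alike in the 3 classes on the deposited scale. Mouse 5 was lowest for 16 of 27 enzymes, 3 of 5 membrane proteins and 7 of 13 peroxins, and mouse 2 was highest for 16, 3 and 8 of them. Mouse 3 had the highest value of 10 members (22.8% of all genes), mouse 1 of 4 (24.0%), mouse 4 of 2 (8.44%) and mouse 5 of 2 (19.2%). Mouse 4 had the lowest value of 10 members (36.5%), mouse 3 of 5 (18.9%), mouse 1 of 3 (11.6%) and mouse 2 of 1 (11.4%). Members tend to be bright, and among the 22 members with a mean above the members' median mouse 5 was lowest for 12, against 32.7% of the 707 genes above that value, and mouse 2 was highest for 14, against 28.1%. With arrays centred on their medians, mouse 5 was lowest for 15 enzymes, 3 membrane proteins and 5 peroxins (17.8% of all genes). Mouse 2 was then highest for 19, 3 and 10 of them (35.9%). After quantile normalization the counts were 17, 3 and 7 for either mouse. Both alternatives were chosen after seeing the data, and the likeness of the classes depends in part on the scale. Members are not replicates of each other, so these counts describe 5 livers.

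**Figure D2:**
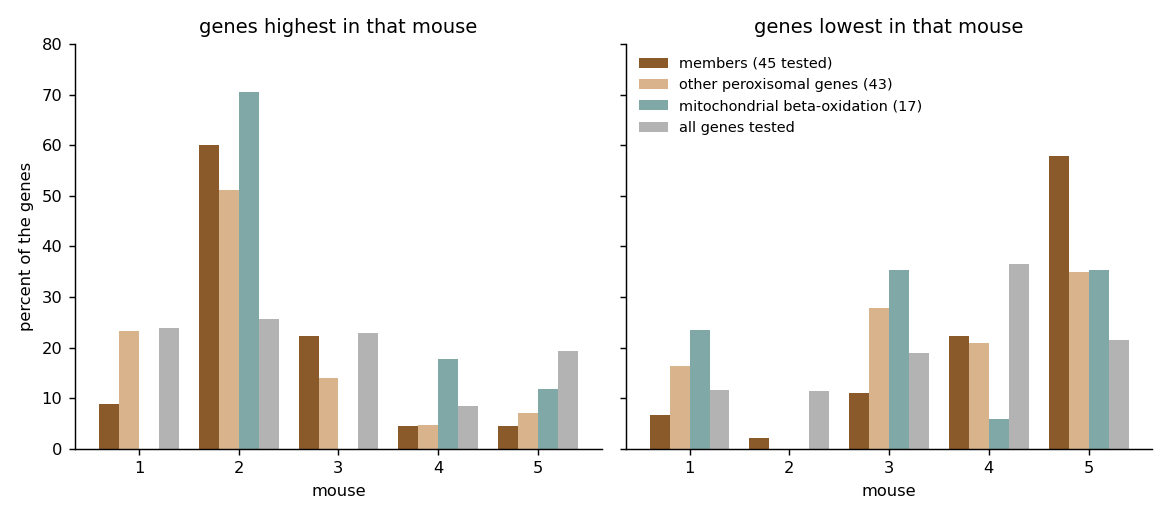
Percent of genes whose highest (left) or lowest (right) value fell in each mouse, for the 45 members, the other peroxisomal genes, the mitochondrial beta-oxidation genes and all genes tested. The members' bars are tallest at mouse 2 on the left (27 genes) and at mouse 5 on the right (26 genes).

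With each gene centred on its own mean, the members deviated on average by 0.03, 0.10, 0.02, -0.03 and -0.12 in mice 1 to 5, against 0.03, 0.03, 0.0034, -0.06 and -0.0014 for all genes tested. The enzymes deviated by 0.02, 0.10, 0.03, -0.0098 and -0.14, the membrane proteins by 0.05, 0.08, 0.03, -0.01 and -0.14, and the peroxins by 0.04, 0.11, 0.01, -0.07 and -0.09. All classes were thus high in mouse 2 and low in mouse 5, while in mouse 4 the peroxins lay close to all genes tested. Bright lists also lay above all genes tested in mouse 4, the hepatocyte markers at 0.04 and the mitochondrial beta-oxidation genes at 0.02. Probe sets of most peroxins were dimmer than those of most enzymes, and the part of signal level in the class differences was not tested. The difference of enzymes minus peroxins was -0.01, -0.01, 0.02, 0.06 and -0.05 in mice 1 to 5, and that of membrane proteins minus peroxins 0.01, -0.02, 0.02, 0.05 and -0.05. Both differences changed sign in mice 1 and 5 when the median over genes replaced the mean. They became 0.012 and 0.025 for enzymes, and -0.025 and 0.017 for membrane proteins. In mouse 2 the difference for enzymes became 0.0041 after quantile normalization. No order of the classes in mice 1, 2 and 5 can be given.

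**Figure D3:**
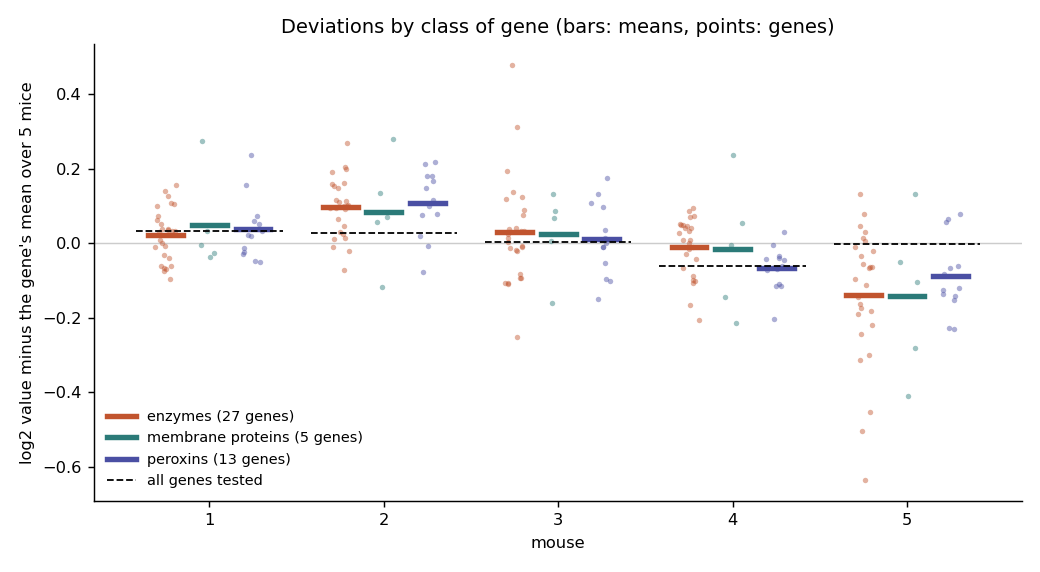
Deviation of each member from its own mean (log2 units) in each mouse, with points for genes, coloured bars for class means and dashed black lines for the mean of all genes tested. The bars of the 3 classes lie close to each other in every mouse, above the dashed line in mouse 2 and below it in mouse 5, where the longest downward tail is that of the enzymes.

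Lists of cell type markers were read beside these values. The 7 hepatocyte markers deviated by -0.03 in mouse 2 and by -0.01 in mouse 5, and the 8 Kupffer cell and macrophage markers by -0.17 and 0.10, with their highest mean in mouse 1 (0.36). The 5 endothelial markers deviated by 0.0048 and -0.03 in mice 2 and 5, the 6 stellate cell markers by -0.09 and -0.04, and the 4 cholangiocyte markers by 0.14 and 0.10. Of 4 skeletal muscle markers 3 were above the floor and deviated by -0.27 and -0.17. Of 4 adipocyte markers 2 were above it, at 0.16 and 0.03, and Adipoq and Lep were below it on all arrays. The 2 above it went apart in mouse 5, where Plin1 had 6.16 (mean 6.40) and Cidec 9.98 (mean 9.69). The T and B cell list (3 tested) deviated by -0.12 and 0.05, the pancreas list (2 tested) by -0.02 and 0.06, with Ins2 below the floor, and the erythroid gene Alas2 by -0.18 and -0.36. Of 4 kidney markers, an organ in which several members are also high, 3 lay below the floor on all arrays and Slc34a1 deviated by -0.15 and -0.0078. None of these lists was both as high in mouse 2 and as low in mouse 5 as the members. The part of the cell mix in the members' values was not tested, and in whole liver fewer cells of a type and less RNA per cell cannot be told apart.

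Set against the expected variance, Nudt7, Uox and Hao1 varied most among the enzymes. Nudt7, which encodes a peroxisomal hydrolase of coenzyme A and its esters, had values of 11.67, 11.62, 11.99, 11.41 and 10.88 in mice 1 to 5, a 2.17-fold span around a mean of 11.51 ± 0.41 (SD, n = 5). Mouse 5 was low and mouse 3 high. Its variance was 21.4 times that expected, with an adjusted p of 0.112 (limma), which ranged from 0.0315 to 0.421 over the alternatives. Median centring of the arrays gave the 0.0315 and was the 1 alternative under which a member passed.

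Uox, which encodes the urate oxidase that humans lack, had 11.83, 11.78, 11.88, 11.76 and 11.19 in mice 1 to 5. The gap between mouse 5 and the rest made up 0.827 of the range, above the critical value of 0.71, as in 2 of the 45 members (Uox and Phyh) and in 5.64% of all genes, and without mouse 5 the SD was 0.054, against 0.285 with all mice. Hao1, which encodes the glycolate oxidase that feeds glyoxylate and oxalate formation, had 9.42, 9.48, 9.69, 9.39 and 8.93, again lowest in mouse 5, with a 1.70-fold span and an SD of 0.138 without that mouse, against 0.280. Their adjusted p was 0.297 and 0.583 (limma). Pipox, an oxidase of pipecolic acid and sarcosine, did not share this order, with 10.76 in mouse 5, between 10.56 and 10.83 in the other mice.

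Cat, which encodes the catalase that removes the hydrogen peroxide these oxidases make, was the steadiest member. Its values of 13.39, 13.37, 13.42, 13.38 and 13.41 in mice 1 to 5 spanned 1.03-fold, and its SD of 0.019 was below that of all but 0.8% of the 500 genes nearest in mean. Cat, like Ehhadh, lies near the top of the scale, where the brightest probe set of an array had 14.00 to 14.12; the part of that position in their spread was not tested.

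**Figure D4:**
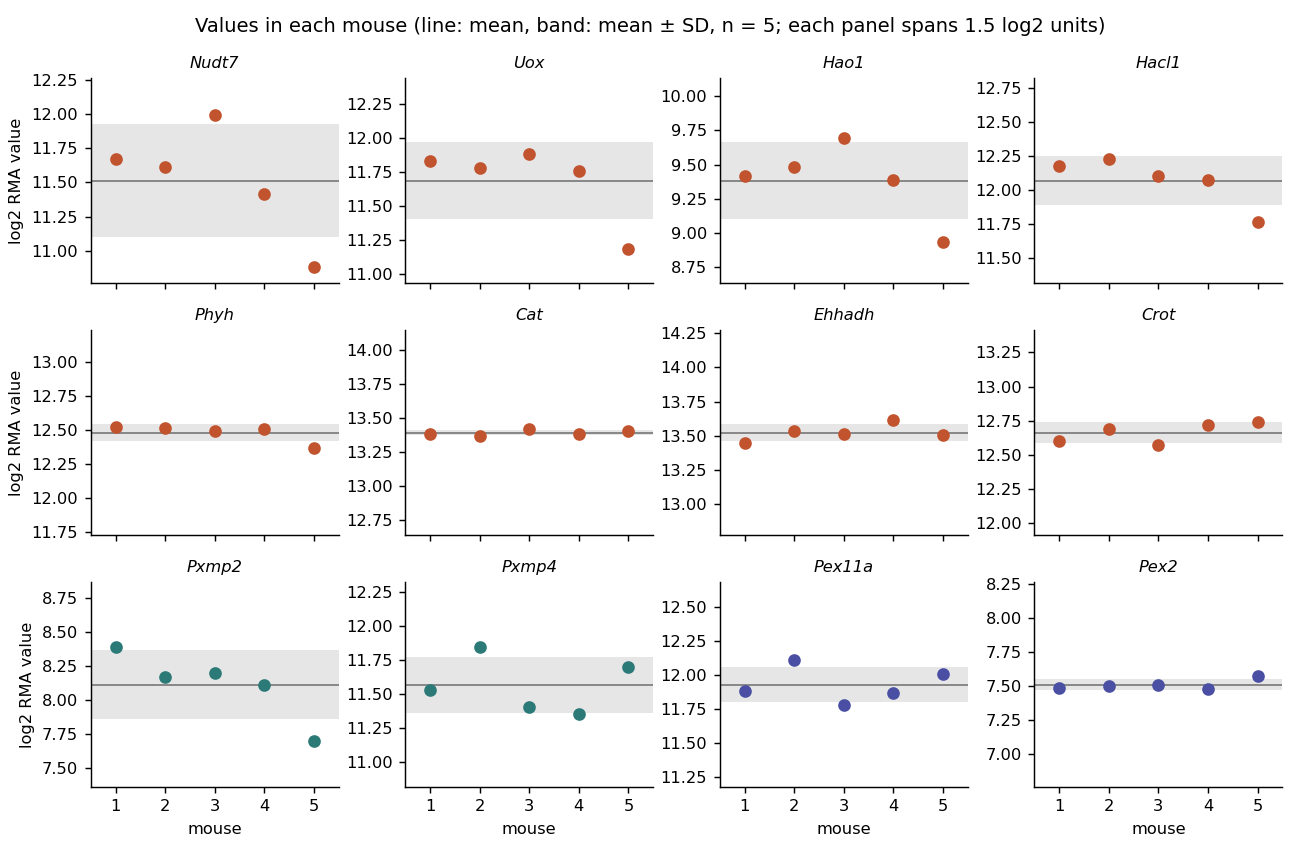
Log2 RMA values of 12 members in each mouse (points), with the mean (line) and the mean ± SD (band, n = 5). Every panel spans 1.5 log2 units. Nudt7, Uox, Hao1, Hacl1 and Pxmp2 have their lowest point in mouse 5, while Cat and Pex2 are almost flat and Crot and Pex2 are highest in mouse 5.

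The 7 enzymes of the beta-oxidation cycle had a median SD of 0.088 and a median variance ratio of 1.13, against 0.931 for all genes tested, and the median percentile of their SDs among genes of like level was 51.2. Ehhadh, which encodes the bifunctional enzyme that hydrates and dehydrogenates straight-chain acyl-CoAs, had 13.45, 13.53, 13.51, 13.62 and 13.50 in mice 1 to 5. Hsd17b4, the counterpart for branched chains and bile acid precursors, had 11.83, 11.99, 11.87, 11.94 and 11.83, and Acox2, an oxidase of branched chains and bile acid precursors, had 11.24, 11.29, 11.18, 11.16 and 11.14. None of these 3 genes spanned more than 1.13-fold.

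Acaa1a and Acaa1b encode the thiolases that end each cycle, and their sequences are so alike that a probe set of one may read the other. Acaa1a had 10.17, 10.18, 10.06, 10.11 and 9.82 in mice 1 to 5, and Acaa1b had 12.04, 12.13, 12.02, 12.12 and 11.86. Mouse 5 was lowest for both, and their spans were 1.28-fold and 1.21-fold. Without it their SDs were 0.056 and 0.055, against 0.145 and 0.109 with all mice. Scp2, whose longer protein is the thiolase of branched chains, averaged 12.08 ± 0.09 (SD, n = 5), and Acox3, another oxidase of branched chains, 8.29 ± 0.13, with their highest values in mouse 3.

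Enzymes that prepare unsaturated or branched chains differed in which mouse was low. Pecr, an enoyl-CoA reductase, ranged from 10.65 in mouse 5 to 11.11 in mouse 2, and Decr2, a dienoyl-CoA reductase, from 12.07 to 12.41 in the same mice. The isomerase gene Eci2 had 11.65 in mouse 2 and 11.33 to 11.48 in the others, and Ech1, a dienoyl-CoA isomerase, averaged 12.72 ± 0.05 (SD, n = 5). Amacr, which encodes the racemase that turns branched chains into the form beta-oxidation accepts, had 11.15, 11.23, 11.18, 11.11 and 11.23 in mice 1 to 5, with an SD of 0.050, the narrowest of the enzymes relative to its expected variance after Cat.

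Alpha-oxidation removes a single carbon from phytanic acid in peroxisomes. Phyh, the hydroxylase that begins it, had 12.52, 12.51, 12.50, 12.51 and 12.37 in mice 1 to 5, so that 4 mice differed by 0.02 and mouse 5 was apart. Hacl1, the lyase that follows, had 12.18, 12.23, 12.10, 12.07 and 11.77, also lowest in mouse 5, with an SD of 0.180 that was 0.073 without that mouse. Both genes of the pathway shared the low mouse, but Hacl1 spanned 1.38-fold and Phyh 1.11-fold.

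The carnitine acyltransferases, which hand shortened chains on to mitochondria, were high in mouse 2 but not low in mouse 5. Their mean deviation was 0.09 and 0.03 in these mice, against 0.10 and -0.12 for all members. Crot, the octanoyltransferase, had 12.60, 12.69, 12.57, 12.71 and 12.74 in mice 1 to 5, and was 1 of the 2 members highest in mouse 5. Crat, the acetyltransferase, had 12.04 in mouse 2, its highest value, and between 11.80 and 11.92 elsewhere.

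Gnpat and Agps catalyse the opening steps of ether lipid synthesis, and both were highest in mouse 2. Gnpat had 9.66 there and 9.21 to 9.52 in the others, with its lowest value in mouse 5. Agps had 6.50 in mouse 2, but its lowest value, 6.09, was in mouse 3, and its values were close to the floor.

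Among the remaining enzymes, Lonp2, a protease that degrades and processes matrix proteins, had 11.58, 11.73, 11.71, 11.65 and 11.43 in mice 1 to 5. Nudt19, another coenzyme A hydrolase, averaged 9.92 ± 0.14, Nudt12, an NADH hydrolase, 9.45 ± 0.10, and Mlycd, which degrades malonyl-CoA, 9.13 ± 0.13 (SD, n = 5). Mouse 2 was highest for all 4 of these genes, and mouse 5 lowest for all but Mlycd, whose lowest value was in mouse 1. The coenzyme A hydrolases Nudt7 and Nudt19 thus had their highest values in different mice.

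**Figure D5:**
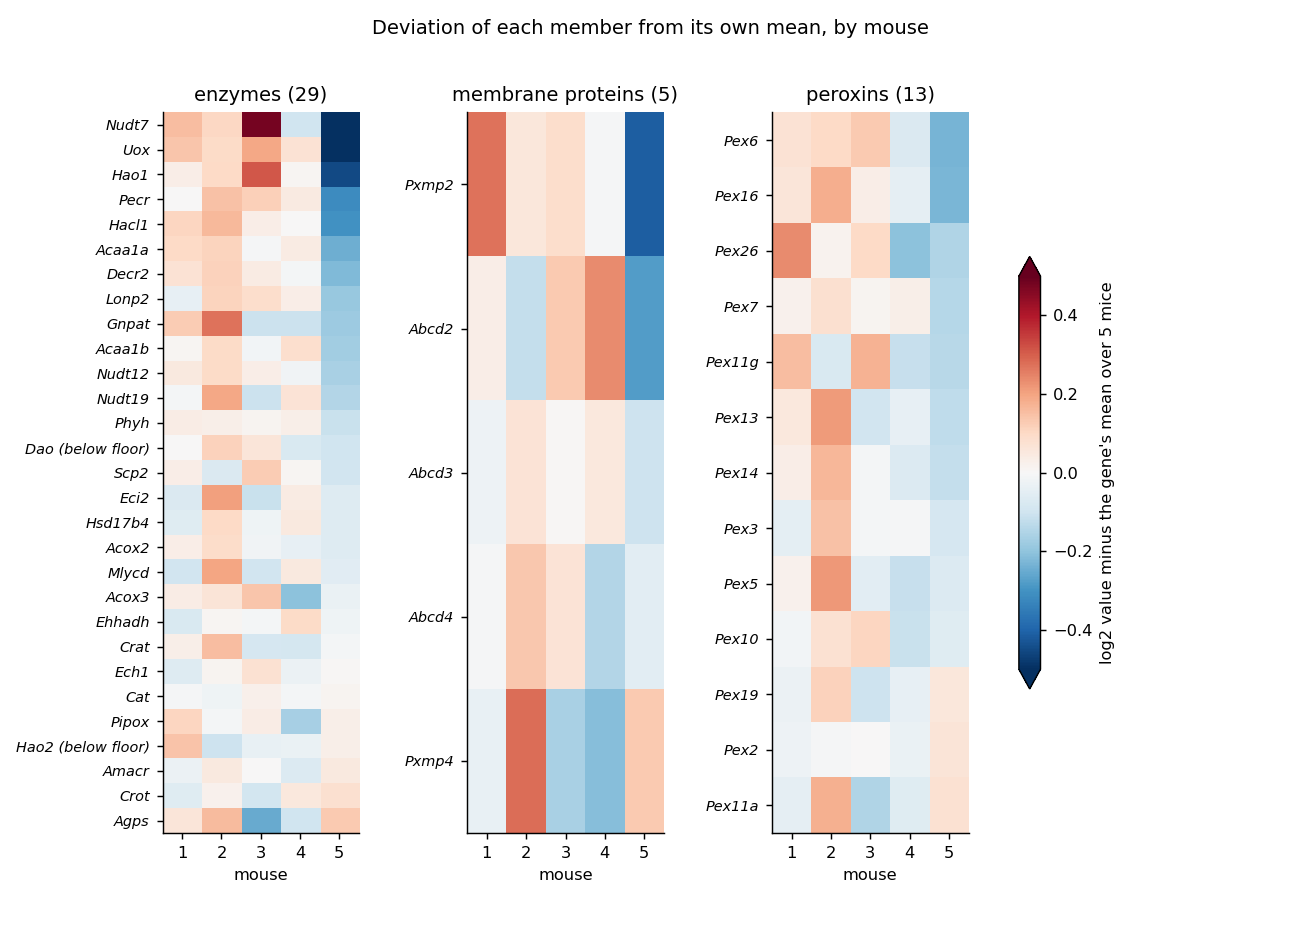
Log2 value minus the gene's mean over the 5 mice for all 47 members by mouse, in panels for enzymes, membrane proteins and peroxins, each sorted by the deviation in mouse 5. Blue is below and red above the gene's mean, with colours at full strength beyond 0.5. Blue prevails in the mouse 5 column and red in the mouse 2 column. Exceptions in the mouse 5 column lie at the bottom of each panel, such as Agps, Crot, Pxmp4 and Pex11a.

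Of the membrane proteins, 3 carry substrates with the help of an ATPase. Abcd2, a transporter of very long chain acyl-CoAs, had 9.08, 8.93, 9.18, 9.29 and 8.77 in mice 1 to 5, and it was the 1 membrane protein highest in mouse 4. Abcd3, the abundant transporter of branched chains and bile acid precursors, had 12.40, 12.49, 12.43, 12.47 and 12.32, a 1.13-fold span. Abcd4, a relative whose protein is known from lysosomal cobalamin export, had 7.40, 7.54, 7.47, 7.26 and 7.35. Both transporters of the peroxisomal membrane were lowest in mouse 5, with SDs of 0.204 for Abcd2 and 0.069 for Abcd3.

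Pxmp2 and Pxmp4, membrane proteins without an ATPase, went apart. Pxmp2, which forms a channel for small solutes, had 8.39, 8.17, 8.20, 8.11 and 7.70 in mice 1 to 5. Pxmp4, whose function is less well known, had 11.53, 11.85, 11.41, 11.36 and 11.70. Mouse 5 was lowest for Pxmp2 and second highest for Pxmp4. Their adjusted p was 0.827 and 0.696 (limma).

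Among the peroxins, mouse 2 was highest for 8 of 13, and their median variance ratio was 1.36, against 0.931 for all genes tested. Pex5 and Pex7 encode the receptors that carry enzymes with a C-terminal and an N-terminal signal to the membrane. Pex5 had 9.29, 9.49, 9.22, 9.16 and 9.21 in mice 1 to 5, and without mouse 2 its SD was 0.056, against 0.131 with all mice. Pex7 had 9.36, 9.42, 9.35, 9.37 and 9.20, so that here mouse 5 stood lower and mouse 2 was close to the rest. The docking genes Pex13 and Pex14 followed Pex5, with 9.25 and 9.70 in mouse 2, against ranges of 8.91 to 9.09 and 9.41 to 9.56 in the other mice.

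Receptors are recycled with the help of a ubiquitin ligase and an ATPase. The ligase gene Pex2 had 7.49, 7.51, 7.51, 7.48 and 7.58 in mice 1 to 5, an SD of 0.038 that was below that of all but 2.8% of the 500 genes nearest in mean, and its partner Pex10 had 7.87, 7.96, 7.99, 7.77 and 7.82. Both were lowest in mouse 4. The ATPase gene Pex6 averaged 8.71 ± 0.15 (SD, n = 5) and was lowest in mouse 5. Pex26, which anchors the ATPase, had 7.17, 6.95, 7.03, 6.73 and 6.78, with its lowest value in mouse 4.

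Membrane proteins are inserted by the products of Pex3, Pex16 and Pex19, and all 3 genes were highest in mouse 2. Pex19, the soluble chaperone, had 11.02, 11.16, 10.94, 11.01 and 11.10 in mice 1 to 5. Pex16, an endoplasmic reticulum and peroxisome membrane receptor, had 11.44, 11.56, 11.41, 11.33 and 11.15. Pex3, the docking factor of Pex19, had 10.01 in mouse 2 and between 9.78 and 9.86 elsewhere. Mouse 5 was lowest for Pex3 and Pex16 and second highest for Pex19.

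Pex11a, the division factor that fibrates induce in rodents, had 11.88, 12.11, 11.78, 11.87 and 12.01 in mice 1 to 5, a 1.26-fold span and an SD of 0.129. It was highest in mouse 2 and second highest in mouse 5. Pex11g, a relative, averaged 8.12 ± 0.15 (SD, n = 5), with 7.98 in mouse 5 and its highest value, 8.29, in mouse 3.

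Other peroxisomal genes, from a wider list, shared the high mouse more than the low one. Of 53 listed, 44 were found, 43 had a mean above the floor and were tested, and 42 exceeded the floor on every array. Mouse 2 was highest for 22 of the 43 and mouse 5 lowest for 15, and their mean deviation was 0.02, 0.13, -0.10, -0.04 and -0.01 in mice 1 to 5. Their median deviation, which single genes move less, was 0.02, 0.09, -0.03, -0.05 and -0.04. The members' median was 0.10 in mouse 2 and -0.10 in mouse 5. In this list 1 gene passed the variance test, the thioesterase gene Acot5 (7.02, 8.81, 6.11, 7.39 and 8.71, limma adjusted p = 0.01), which was high in mice 2 and 5 and lost its call without mouse 2 (0.0525), mouse 3 (0.0532) or mouse 4 (0.0839) and with the variance fit that was not robust (0.0806).

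The genes of mitochondrial beta-oxidation had a narrower spread than the members as a whole. The 7 peroxisomal enzymes of the beta-oxidation cycle, which are the closer counterpart, had a median SD of 0.088, and 0 of them passed (0 also at an unadjusted p under 0.05, limma). The mitochondrial genes were close to that in SD, but lower relative to genes of like level. Their median variance ratio was 0.727, against 1.13 for those 7 enzymes, and their median percentile 35.4, against 51.2. All 17 mitochondrial beta-oxidation genes exceeded the floor in all mice, their median SD was 0.078 against 0.126 for the members and 0.117 for all genes tested, and 0 passed (0 also at an unadjusted p under 0.05, limma). Mouse 2 was highest for 12 of the 17, and mice 3 and 5 were each lowest for 6. Of 13 further genes, PPARA targets outside peroxisomes and Ppara itself, 12 were found and tested, with mouse 2 highest for 4, mouse 5 highest for another 4 and mouse 3 lowest for 7. The 1 that passed was Pdk4 (limma adjusted p = 0.01, and 0.0813 without mouse 3, 0.0998 without mouse 4, 0.0857 without the trend on level and 0.0806 with the fit that was not robust).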

How the data were processed

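Affymetrix whole-transcript arrays measured total liver RNA of 5 mice, 1 array each, with RNA from a column kit with DNase treatment, per the labels' protocols. The authors deposited log2 values, 1 per probe set and array, made with RMA and Affymetrix Expression Console 1.2, per the submitters' processing notes. RMA makes array distributions alike and compresses differences near background. Arrays carry no counts, and having only 5 of them limits the precision.

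Of 35556 probe sets, 21789 had exactly 1 symbol in the platform annotation, 1621 several and 12146 none. By gene ID, 21698 of the 21789 matched RefSeq (GRCm38.p6), and 0 symbols differed. The probe set with the highest mean stood for a gene. Genes with a mean above the mean floor (5.77) were tested. An intercept-only model (limma 3.58.1, statmod 1.5.0, R 4.3.3) gave each variance, set against the expected one (fitFDistRobustly with the mean as covariate, prior degrees of freedom 6.22) and adjusted over all 14557 probe sets. The code was tested on simulated data. Python 3.11.15, numpy 2.4.6 and pandas 2.3.3 did the rest. P-values describe the spread between these mice, which includes technical spread.

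Alternatives were median centring, quantile normalization, other filters, a fit without the trend or not robust, medians over genes and each mouse left out. Members and lists (wider peroxisomal genes, mitochondrial beta-oxidation, PPARA targets and cell type markers) were chosen with earlier results of these data known. Every member may be named. Each mouse's value is given for 17 listed members, for the 3 widest and 2 narrowest of each class relative to expected variance, and for members with 1 mouse far from the others. Protein sequences were not used here.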

Additional observations from a re-analysis of the deposited data

Results flagged for a closer look

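For 2 of the 45 members 1 mouse lay far from the other 4, measured as the gap to the nearest mouse over the whole range. The gap made up 0.841 of the range in Phyh and 0.827 of it in Uox, in both cases with mouse 5 lowest, against a critical value of 0.71 for 5 samples. Over all genes tested 5.64% exceeded that value, and chance alone gives about 1 gene in 20, so 2 of 45 is near the background. Mouse 5 had 12.37 for Phyh, against 12.50 to 12.52 in the other mice, and 11.19 for Uox, against 11.76 to 11.88.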

How the results depend on the processing

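The table-wide count of 52 probe sets was 146 with arrays centred on their medians, 29 with the floor required on all arrays, 24 without the trend on level, 18 with a fit that was not robust and 0 to 69 when 1 mouse was left out. The 0 came without mouse 4 (863 at an unadjusted p under 0.05, limma), and 34 and 30 were called without mice 2 and 3. The count of members called was 1 (Nudt7, variance ratio 15.1) with arrays centred on their medians, and 0 under the other alternatives, including each mouse left out, with 2 to 6 members at an unadjusted p under 0.05 (limma). With the median over genes in place of the mean, the difference in deviation was 0.025 (enzymes minus peroxins, mouse 5), 0.067 (membrane proteins minus peroxins, mouse 3) and 0.017 (membrane proteins minus peroxins, mouse 5). With 1 mouse left out the median SD ranged from 0.0818 (without mouse 2) to 0.142 in the peroxins, from 0.120 (without mouse 5) to 0.232 in the membrane proteins and from 0.0697 (without mouse 5) to 0.131 in the enzymes. The cause was not tested. Under alternatives chosen after seeing the data, members lowest in mouse 5 numbered 23 with arrays centred on their medians (17.8% of all genes), 27 after quantile normalization (22.6%), 26 without mouse 2 (24.4%) and 31 without mouse 4 (34.5%), and those highest in mouse 2 numbered 32 (35.9%), 27 (25.9%), 28 without mouse 4 (27.4%) and 27 without mouse 5 (32.3%). Of 889 alternative values, 875 kept their call or size, a count that does not measure robustness. A class deviation or difference counted as kept when it moved by less than its SD between mice, even if its sign changed. Some values could not move: median centring cancels in the class differences, and the floor required on all arrays left the deviations of the tested members as they were. Each member had 1 probe set, so averaging probe sets left the members' values as they were. No paired analysis was possible because there was 1 group.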
